A study of Mus musculus with 9 samples.

Results

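The chemokine genes Cxcl1, Cxcl2, Cxcl5 and Ppbp encode secreted ligands of the receptor CXCR2. They were taken as all probe sets annotated to exactly 1 of these symbols. That gave 6 probe sets for 4 genes, out of 18193 genes with a probe set of their own on the array. Where a gene had several, 1 was selected on its mean over the 9 arrays, the highest being kept. This mean mixes the conditions and does not contrast them. For Cxcl1 the means of the 3 probe sets were 9.54, 9.35 and 5.48 (log2 intensity), and the first was used. Cxcl2, Cxcl5 and Ppbp had 1 probe set each, with means of 5.47, 7.87 and 7.84.

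The arrays measured transcripts in m-ICcl2, an established small intestinal epithelial line of C57BL/6 mouse origin that carries the SV40 large T antigen as a transgene in every group. What drives the transgene is not stated in the labels. There were 3 groups of 3 arrays: cells left unstimulated, cells given 100 ng/mL LPS (lipopolysaccharide, the endotoxin of Gram-negative bacteria) for 6 h, and cells given the same LPS for 6 h and then LPS-free medium for 90 h. Cells of the last group, harvested at 96 h, bear the name tolerant in the design text, which is kept here. The labels give no culture time for the unstimulated cells, so an effect of longer culture and one of the past LPS cannot be told apart. The comparisons of 6 h and of tolerant cells share the same unstimulated arrays. The labels call the arrays of a group biological replicates without saying what separates them, and p-values measure only the spread between these samples, which may be technical.

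Chemokines with a glutamate-leucine-arginine motif before the CXC cysteines bind CXCR2 on neutrophils and draw these cells out of the blood. In the gut, epithelial cells that sense bacterial products are one source of them. Cxcl1 (also called KC) and Cxcl2 (MIP-2) are close relatives that many cell types switch on within hours through NF-kappa-B. Cxcl5 (LIX) is made largely by epithelial and stromal cells. Ppbp is best known as the platelet basic protein, whose cleavage yields the neutrophil attractant NAP-2. All 4 genes lie on mouse chromosome 5 in a cluster of CXC chemokine genes. In RefSeq order (assembly GRCm38.p6) its 7 genes are Cxcl5, Ppbp, Pf4, Cxcl3, Cxcl15, Cxcl1 and Cxcl2, so Cxcl5 neighbours Ppbp, Cxcl1 neighbours Cxcl2, and 3 genes lie between these pairs.

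RefSeq promoter windows (GRCm38.p6) were matched by symbol for 3 of the 4 genes, Ppbp, Cxcl1 and Cxcl2, but not for Cxcl5. They are shown because the windows of Cxcl1 and Cxcl2 share a stretch that Ppbp lacks. Whether this stretch bears on the transcript levels was not tested. Each line gives the 250 bases before the annotated start, 5′ to 3′ on the plus strand, at chr5:90890995-90891244 for Cxcl1, chr5:90903649-90903898 for Cxcl2 and chr5:90768268-90768517 for Ppbp. Capitals mark the kappa-B site GGGAATTTCC and the TATA-like run ATAAAA, which reads TTTTAT where it lies on the opposite strand.
Cxcl1: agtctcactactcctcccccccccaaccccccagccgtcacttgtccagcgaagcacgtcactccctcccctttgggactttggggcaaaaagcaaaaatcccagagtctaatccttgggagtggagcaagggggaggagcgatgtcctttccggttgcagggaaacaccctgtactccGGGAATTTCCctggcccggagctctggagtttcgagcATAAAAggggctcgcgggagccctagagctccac
Cxcl2: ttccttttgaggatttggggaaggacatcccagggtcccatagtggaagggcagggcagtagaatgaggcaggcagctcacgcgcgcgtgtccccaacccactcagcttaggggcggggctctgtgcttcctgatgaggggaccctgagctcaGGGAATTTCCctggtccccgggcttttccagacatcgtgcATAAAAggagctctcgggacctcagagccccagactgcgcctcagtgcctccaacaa
Ppbp: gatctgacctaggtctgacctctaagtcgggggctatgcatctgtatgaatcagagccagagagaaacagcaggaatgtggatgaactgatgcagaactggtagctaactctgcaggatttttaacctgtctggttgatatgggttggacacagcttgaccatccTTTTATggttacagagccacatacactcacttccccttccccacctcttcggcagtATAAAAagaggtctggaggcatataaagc

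The site GGGAATTTCC lay 71 to 62 bases before the start of Cxcl1 and 97 to 88 bases before that of Cxcl2. The longest run shared by these windows was GGGAATTTCCCTGG, 14 bases, which begins with the site. The longest runs that Ppbp shared with Cxcl1 and with Cxcl2 were 7 and 8 bases. Searched on both strands, GGGAATTTCC was present in 28 of 32851 promoter windows of this length (0.0852%), each of a different gene. These letters, the first 10 of the 11-base run GGGAATTTCCC that Cxcl1, Cxcl2 and Cxcl3 share, were chosen after the sequences had been read. Cxcl3, which lies between the pairs, holds the site 73 to 64 bases before its start. The broader kappa-B consensus, searched by its name alone, was present in 7.25% of windows; in Cxcl1, Cxcl2 and Cxcl3 it matched only at this site, on both strands with an overlap of 9 bases, and in Ppbp it had no match. ATAAAA was present in 17.0% of windows and lay 34 to 29 bases before the start of Cxcl1, 57 to 52 before that of Cxcl2 and, on the plus strand, 29 to 24 before that of Ppbp. The C/EBP motif TTGCNNAA (9.56% of windows) had no match in these 3 promoters. The AP-1 motif TGANTCA (6.75%) matched at 1 position in Ppbp, 204 to 198 bases before the start, on both strands. A match is a run of letters and not evidence of binding.

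A few facts of the series bear on the values. All levels are log2 intensities made with GCRMA, which subtracts a modelled background. Values below log2 4 crowd near a floor and have no order, and 59.1% to 61.0% of probe sets lay there on each array. Tests covered the 9431 genes that reached log2 4 on 3 or more arrays. The 4 chemokine genes passed, Cxcl2 only through its stimulated and tolerant arrays. Replicate 1 stood apart from replicates 2 and 3 in every condition, and the 3′ beta-actin control probe set exceeded the 5′ one, in log2, by 0.40 to 0.72 on its arrays and by 1.02 to 1.38 on the other 6. Where a block for the replicate number changes a call of the 4 chemokine genes, that value stands beside it. For other genes such values are given in part. With 3 arrays a group, their number limits the precision. In bulk RNA, fewer cells that express a gene and less of its RNA per cell cannot be told apart.

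The label of the cells was checked against fixed markers. Of 8 epithelial genes, 5 reached log2 4 on some array, among them the keratin genes Krt8 and Krt18 and the villin gene Vil1, while Cdh1, Krt19 and Cldn7 stayed below log2 4 on all 9 arrays and Epcam on all unstimulated and 6 h arrays. Of 10 leukocyte and macrophage genes, Csf1r alone reached log2 4. It was 3.85-fold lower in tolerant than in unstimulated cells (limma adjusted p = 0.0232), and Ptprc, Itgam and Tyrobp stayed below log2 4 throughout. At 6 h Csf1r differed by -0.47 log2 and did not pass (limma adjusted p = 0.609, or 0.0449 with the block). The summed linear intensity of that list was 1147.5 to 2419.85 in unstimulated, 712.307 to 2080.64 in 6 h and 302.802 to 682.875 in tolerant cells. This sum was carried by Csf1r, the 1 gene of the list above log2 4, and its part in the changes of the chemokine genes was not tested. Of the 5 tested epithelial genes, limma called 3 as raised and 0 as lowered in tolerant against unstimulated cells (14.0% and 12.2% of all tested genes): Epcam at least 3.11-fold, Cdh17 4.13-fold (adjusted p = 0.0038) and Krt18 1.58-fold (adjusted p = 0.0479). Epcam passed the level minimum through its tolerant arrays alone, so its call is a description and not support. The other tested epithelial genes, Vil1 and Krt8, were not called in that comparison (-0.18 and -0.10 log2, limma adjusted p = 0.515 and 0.817). The tolerant arrays of Vil1 lay wholly below the unstimulated ones, as did those of 24.5% of tested genes. At 6 h limma called 0 of the 5 genes. With the block Krt18 and Vil1 were lower at 6 h (adjusted p = 0.0488 and 0.0463), a call made for 12.5% of all tested genes. The part of the epithelial genes in the changes of the chemokine genes was not tested either. Of the markers with a probe set, none of 6 platelet, 8 fibroblast and 6 endothelial genes reached log2 4 on any array. Summed platelet markers ranged from 29.7384 to 31.1314 in unstimulated, 28.9165 to 30.1361 in 6 h and 28.6839 to 30.5934 in tolerant cells.

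**Figure D1:**
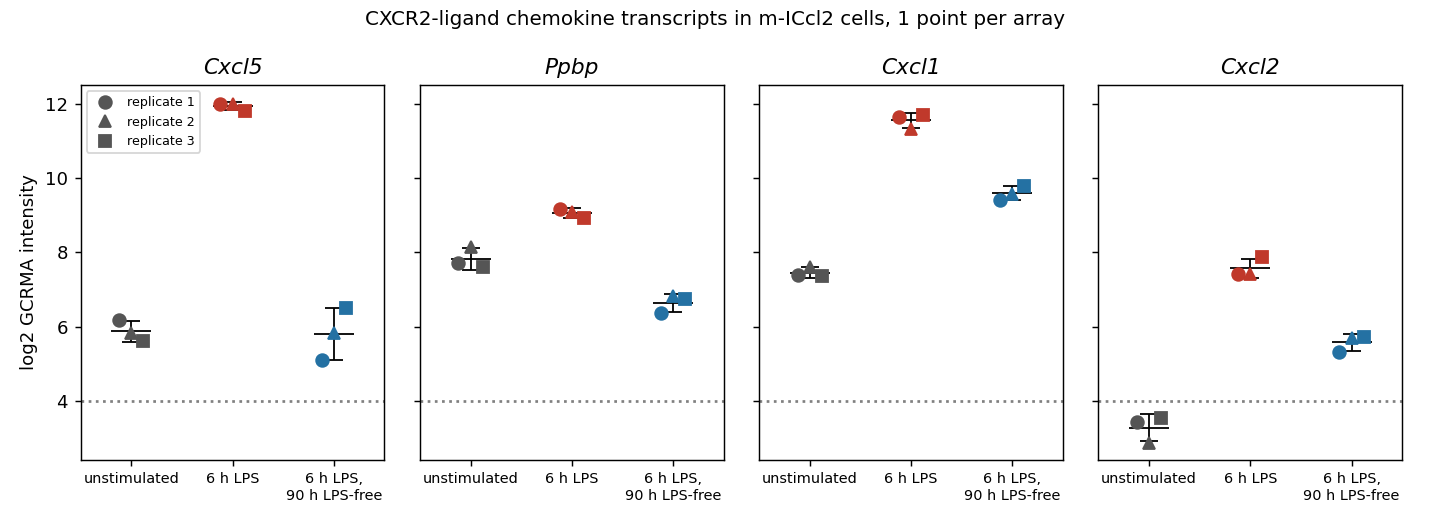
Log2 GCRMA intensity of Cxcl5, Ppbp, Cxcl1 and Cxcl2 (1 panel each) by condition, with 1 point per array, marker shape for the replicate number, and the mean ± SD over 3 arrays. The dotted line is log2 4. All 4 genes are highest at 6 h of LPS. The tolerant arrays lie with the unstimulated ones for Cxcl5, below them for Ppbp, and between the other conditions for Cxcl1 and Cxcl2.

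Cxcl5 had the widest swing. Its log2 level was 6.16, 5.84 and 5.60 on the unstimulated arrays, 12.01, 12.01 and 11.82 at 6 h of LPS, and 5.10, 5.81 and 6.51 in tolerant cells. The 6 h arrays stood far above the other groups, which overlapped. The change at 6 h was 6.08 log2 (95% confidence interval 5.35 to 6.81) with a limma adjusted p of 3.99e-05 and ranked 1 of 9431 tested genes. The fall from 6 h to the tolerant state was -6.14 log2 (70.6-fold; limma adjusted p = 2.79e-05), the largest among these tested genes. Tolerant and unstimulated cells differed by -0.06 log2 (95% confidence interval -0.79 to 0.67; limma adjusted p = 0.912). The tolerant arrays had a wide spread, with an SD of 0.70 against 0.28 in unstimulated and 0.11 in 6 h cells, and the interval covers differences of either sign. The within-number differences were -1.07, -0.02 and 0.90 for replicates 1, 2 and 3, so the tolerant arrays did not lie on the same side of their unstimulated partners. Without tolerant replicate 1 the difference was 0.29 and without unstimulated replicate 1 it was 0.09. On replicates 2 and 3 only it was 0.44 (limma adjusted p = 0.194).

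Ppbp, the neighbour of Cxcl5, had a smaller swing that went past its starting level. Its log2 level was 7.71, 8.15 and 7.61 on the unstimulated arrays, 9.17, 9.09 and 8.92 at 6 h, and 6.37, 6.82 and 6.74 in tolerant cells. None of the 3 groups overlapped, and the tolerant arrays were the lowest. At 6 h Ppbp was 2.35-fold higher (1.23 log2, SE 0.20), which did not pass over all genes (limma adjusted p = 0.0722). The call was reached under the replicate block (adjusted p = 0.0233) and without 6 h LPS replicate 3 (1.31 log2, adjusted p = 0.0267), and over the alternatives its adjusted p ran from 0.0233 to 0.333. In tolerant cells Ppbp was 2.27-fold lower than in unstimulated cells (-1.18 log2, SE 0.20; limma adjusted p = 0.0035), lower in 3 of 3 same-numbered pairs. From 6 h to the tolerant state it fell 5.34-fold (limma adjusted p = 0.000176). Platelet markers were near the floor on every array, as given above, and Pf4, which encodes platelet factor 4 and lies on the other side of Ppbp, had a highest log2 level of 2.79. On replicates 2 and 3 only, Ppbp differed by 1.12 log2 at 6 h, -1.10 between tolerant and unstimulated cells and -2.22 from 6 h to the tolerant state.

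Cxcl1 rose at 6 h and stayed well above its starting level in tolerant cells. Its log2 level was 7.38, 7.62 and 7.36 on the unstimulated arrays, 11.65, 11.33 and 11.71 at 6 h, and 9.42, 9.59 and 9.80 in tolerant cells. The 3 groups did not overlap, with the tolerant arrays midway. Its 6 h level was 17.3-fold the unstimulated one (4.12 log2, SE 0.18; limma adjusted p = 2.24e-05). The tolerant level exceeded the unstimulated one by 2.15 log2 (95% confidence interval 1.76 to 2.55; limma adjusted p = 0.000136). The other probe sets of Cxcl1 gave like changes. At 6 h the 3 probe sets were higher by 4.12, 4.12 and 4.49 log2, and in tolerant cells by 2.15, 2.13 and 2.42. The last value of each series belongs to the dimmest probe set, whose unstimulated arrays all lay below log2 4. The probe set with a mean of 9.35 read 7.80, 7.18 and 6.80 in unstimulated, 11.64, 11.28 and 11.25 in 6 h and 9.40, 9.33 and 9.44 in tolerant cells. The probe sets with the highest and the lowest mean carry the array maker's suffixes for sets that can share sequence with other transcripts, and the remaining one does not.

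Cxcl2 was dimmer and moved with Cxcl1. Its log2 level was 3.43, 2.86 and 3.52 on the unstimulated arrays, 7.42, 7.42 and 7.87 at 6 h, and 5.31, 5.70 and 5.72 in tolerant cells. The groups did not overlap, but the unstimulated values lay near the floor, so its changes from unstimulated cells are lower bounds, at least 11.9-fold at 6 h and at least 2.98-fold in tolerant cells (limma adjusted p = 3.99e-05 and 0.00031). The fall of 3.99-fold from 6 h to the tolerant state was measured on both sides (limma adjusted p = 0.000837). Over the 9 arrays the log2 values of Cxcl1 and Cxcl2 had a Pearson r of 0.989, those of Cxcl5 and Ppbp 0.866, and those of Ppbp with Cxcl1 and Cxcl2 0.486 and 0.452. With Cxcl5, Cxcl1 and Cxcl2 gave 0.843 and 0.831. These values are descriptions over arrays that share their treatment.

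Of the 4 genes, 3 were called higher at 6 h, where 0.0636% of tested genes were called higher, and 4 with the replicate block (11.6% called higher and 12.5% lower). In tolerant against unstimulated cells 2 were called higher (14.0% of tested genes) and 1 lower (12.2%), as with the block (22.7% and 25.9%). From 6 h to the tolerant state all 4 were called lower (6.02%, or 15.7% with the block). At 6 h all 4 had arrays wholly above the unstimulated ones, as had 12.9% of tested genes, while 13.2% lay wholly below. In tolerant cells 2 lay wholly above (22.6%) and 1 wholly below (24.5%), and from 6 h to the tolerant state all 4 lay wholly below (15.4%). The genes had been picked with these changes known, so the counts are descriptions. Cxcl2 passed the level minimum only through its 6 h and tolerant arrays, so its calls against unstimulated cells are not support. The median log2 change of all tested genes was -0.11 at 6 h, -0.07 for tolerant against unstimulated cells and 0.01 for tolerant against 6 h cells, all small beside the changes given here for the chemokines other than that of Cxcl5 between tolerant and unstimulated cells.

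**Figure D2:**
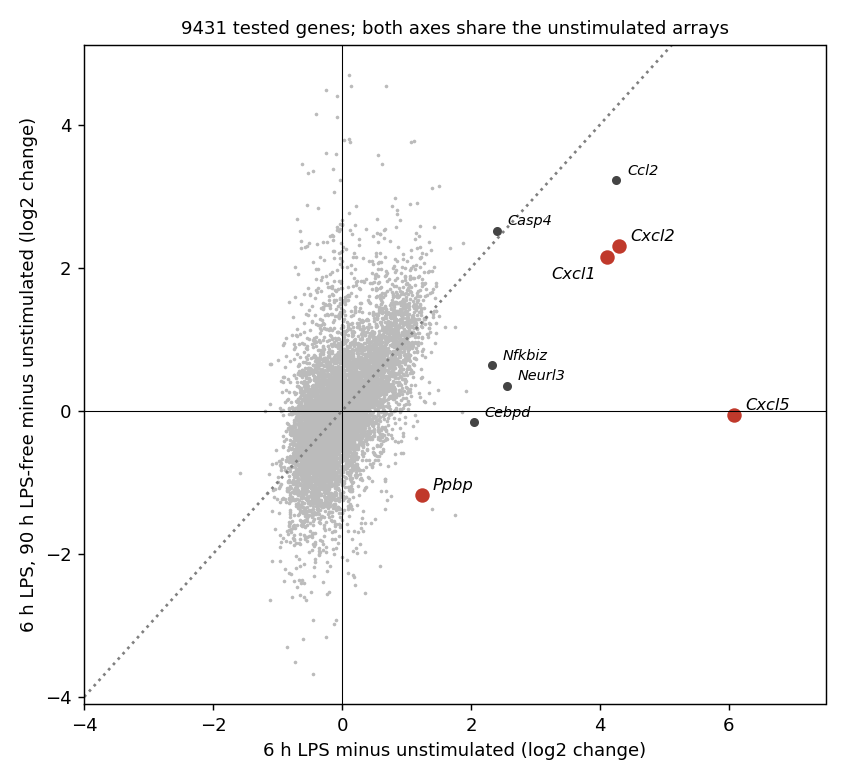
Log2 change of each of 9431 tested genes at 6 h of LPS (x axis) and in tolerant cells (y axis), both against the same unstimulated arrays. The dotted line marks equal changes. Cxcl5 lies at 6.08 on the x axis and near 0 on the y axis, Ppbp is below 0 on the y axis, and Cxcl1 and Cxcl2 lie close together between these and Ccl2.

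The level left in tolerant cells, relative to the 6 h rise, differed between the neighbouring pairs and also within the pair of Cxcl5 and Ppbp. It was expressed as the share of the 6 h rise (on the log2 scale) that was left in tolerant cells, where 0% is a full return. The share was 52.3% for Cxcl1 and 53.6% for Cxcl2. For Cxcl5 it was -1.01% and for Ppbp -95.8%, so that Ppbp lay about as far below its starting level as it had been above it at 6 h. Computed within each replicate number, the SD over 3 values was 4.17 percentage points for Cxcl1, 7.85 for Cxcl2, 16.4 for Cxcl5 and 38.7 for Ppbp. The highest value for Cxcl5, 14.5%, lay below the lowest for Cxcl1 and Cxcl2, 47.9% and 47.2%. All 3 probe sets of Cxcl1 gave shares of 51.6% to 53.9%. On the linear intensity scale the shares were 21.1% for Cxcl1, 21.0% for Cxcl2, 0.034% for Cxcl5 and -42.3% for Ppbp, with Cxcl1 and Cxcl2 still highest and Ppbp lowest. With values below log2 4 set to 4, the share of Cxcl2 was 44.1%.

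**Figure D3:**
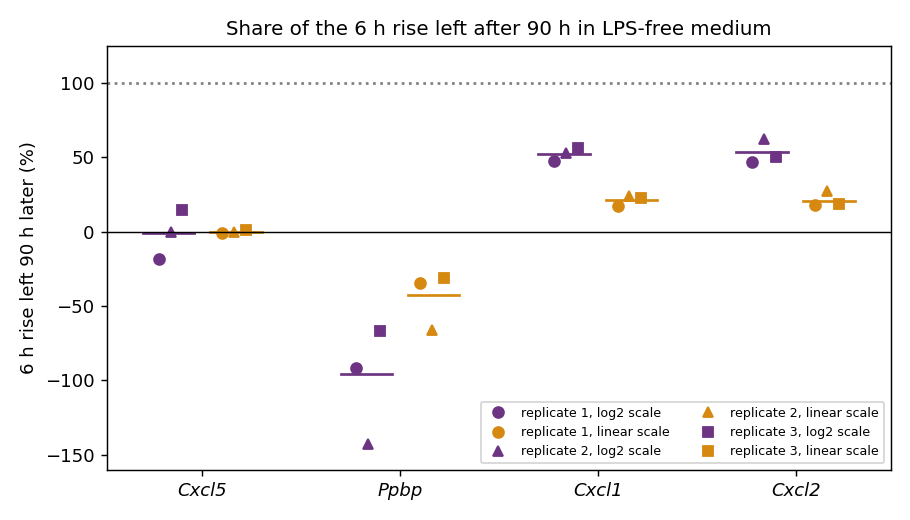
Share of the 6 h rise left after 90 h in LPS-free medium, in percent, for each gene and replicate number, on the log2 scale (purple) and on the linear scale (orange). Horizontal bars are values from the group means, 0% is the unstimulated level and the dotted line at 100% the 6 h level. Cxcl1 and Cxcl2 lie above 0 in every replicate, Ppbp below 0, and Cxcl5 on either side of 0.

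The changes of each pair of genes were compared within arrays, by the log2 ratio of the same probe sets, in 6 pairs and 3 comparisons. With 3 arrays against 3, the exact two-sided permutation test cannot go below p = 0.1, so none could pass 0.05. After Benjamini-Hochberg adjustment of this test over the 18 results, the lowest value was 0.138. From 6 h to the tolerant state the fall of Cxcl5 was 4.18 log2 larger than that of Cxcl1 (3.40 to 4.69 over replicate numbers) and 4.15 log2 larger than that of Cxcl2 (3.16 to 4.81), with no overlap of the ratios (exact p = 0.1 each). Against its neighbour Ppbp the fall of Cxcl5 was larger by 3.72 log2 (exact p = 0.1, no overlap). Cxcl1 and Cxcl2 differed in this step by 0.03 log2 (-0.12 to 0.24 over replicate numbers; exact p = 0.9), and their ratios overlapped. In the same step the falls of Cxcl1 and Cxcl2 differed from that of Ppbp by 0.45 and 0.42 log2, also with overlapping ratios (exact p = 0.2 and 0.3). Against the unstimulated cells, tolerant cells had the ratio of Cxcl5 to Ppbp raised by 1.12 log2 (0.27 to 1.78; exact p = 0.1, no overlap) and the ratio of Cxcl1 to Cxcl5 by 2.21 log2 (1.54 to 3.11; exact p = 0.1, no overlap). At 6 h the rise of Cxcl5 exceeded that of Cxcl1 by 1.96 log2 and that of Ppbp by 4.85 log2, again with no overlap. The rises of Cxcl1 and Cxcl2 differed by -0.18 log2 (exact p = 0.7), a value that rests on near-floor unstimulated values of Cxcl2 and turned to 0.54 with the floor at log2 4.

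Few tested genes had the order of levels of Ppbp. With values below log2 4 tied at 4, in 66 of 9431 genes (0.7%) every tolerant array lay below every unstimulated array and every unstimulated array below every 6 h array. In 3 of them both steps were at least 2-fold: Ppbp, the transferrin receptor gene Tfrc (log2 means of 8.50 unstimulated, 9.89 at 6 h and 7.12 tolerant) and the long noncoding RNA Neat1 (9.88, 11.64 and 8.43). The rise of Neat1 at 6 h did not pass (limma adjusted p = 0.109, or 0.0319 with the block). The order of Cxcl1 and Cxcl2, with tolerant arrays between the others, was found in 23 genes (0.244%). The 4 of these that were at least 2-fold higher at 6 h were Cxcl1, Cxcl2, Ccl2 and Nfkbiz. The order of Cxcl5, with overlapping tolerant and unstimulated arrays below all 6 h arrays, was found in 174 genes (1.84%), 18 of them at least 2-fold higher at 6 h. These lists were made after the values had been seen.

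Along the chromosome, genes that changed lay beside genes without a measured signal. Between the pairs, Pf4, Cxcl3 and Cxcl15 stayed below log2 4 on all 9 arrays, with highest values of 2.79, 3.36 and 2.37. Cxcl3, a further CXCR2 ligand that holds the same GGGAATTTCC site, thus had no measured rise on its probe set. Of the 3 genes before Cxcl5, Afm and Albfm1 were below log2 4 throughout, and Rassf6, a member of the Ras association domain family, was 1.17 log2 higher in tolerant than in unstimulated cells (limma adjusted p = 0.00108), with 0.24 log2 at 6 h (adjusted p = 0.374). Of the 3 genes after Cxcl2, the epidermal growth factor family genes Epgn and Ereg were below log2 4 throughout. Mthfd2l, a gene of mitochondrial folate metabolism, was 0.17 log2 higher at 6 h and 0.52 log2 higher in tolerant cells and passed in neither (adjusted p = 0.853 and 0.491), while the block gave an adjusted p of 0.0159 in tolerant cells.

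**Figure D4:**
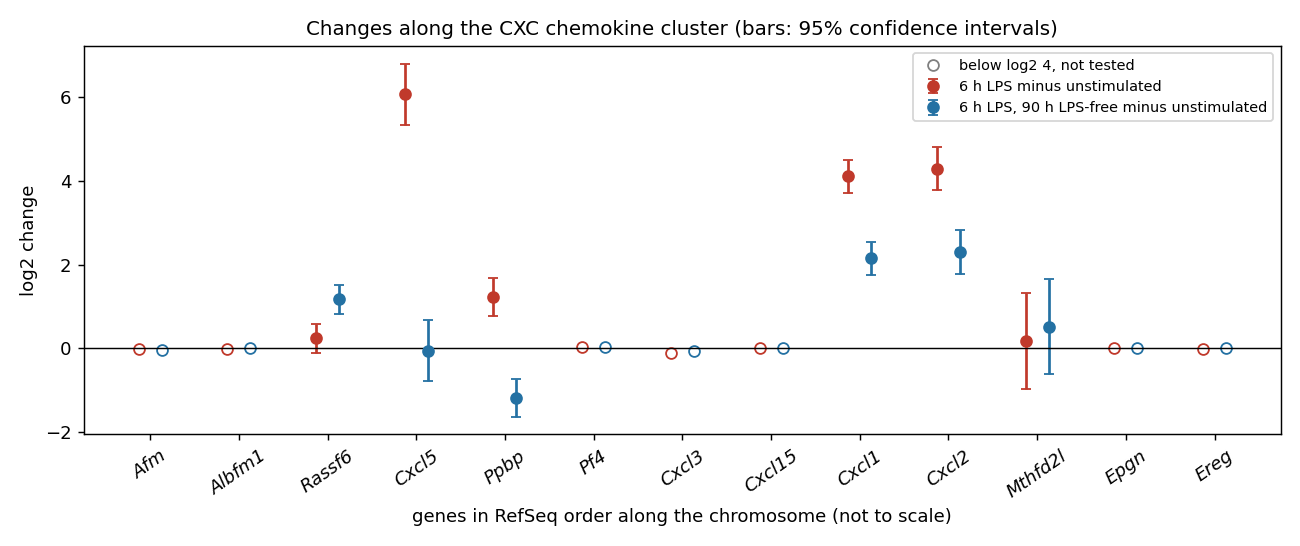
Log2 change at 6 h of LPS (red) and in tolerant cells (blue) against unstimulated cells for 13 genes in RefSeq order along chromosome 5, not drawn to scale. Bars are 95% confidence intervals, and open points are genes below log2 4 that were not tested. Large rises at 6 h appear at Cxcl5, Cxcl1 and Cxcl2, with genes below log2 4 between the pairs.

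Of the 28 genes with GGGAATTTCC in their upstream window, 9 were tested. Cxcl1 and Cxcl2 are among these by the way the letters were chosen, so their calls say nothing about the site. Of the other 7, 0 were called at 6 h by limma, and Nfkbia alone had an unadjusted p under 0.05. Nfkbia, the gene of the inhibitor I-kappa-B-alpha, was 0.87 log2 higher at 6 h with no overlap between arrays and did not pass (limma adjusted p = 0.128), but did with the block (adjusted p = 0.0272). The other 6 tested genes with the site had overlapping arrays at 6 h. In tolerant against unstimulated cells Nfkbia was called higher (0.85 log2, limma adjusted p = 0.0456). Csad and Slc6a13 were called lower there (-1.30 and -1.67 log2, limma adjusted p = 0.0167 and 0.013). The shares of all tested genes were 14.0% higher and 12.2% lower.

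Receptor transcripts were measured for Ackr3 alone. Cxcr2, which carries the signal of these ligands, and Ackr1, which binds them without signalling through G proteins, had highest values of 2.52 and 2.98 over the 9 arrays. Cxcr1 had no probe set of its own here and was not analysed. Ackr3, an atypical receptor best known for binding Cxcl12, was present at 8.99 ± 0.04 (log2, SD, n = 3) in unstimulated, 8.37 ± 0.36 in 6 h and 8.98 ± 0.11 in tolerant cells. Its 6 h arrays lay below all others, and neither change passed (limma adjusted p = 0.128 at 6 h and 0.0713 for tolerant against 6 h cells), but the block gave adjusted p values of 0.0337 and 0.0167. Of 8 tested genes of chemokine receptor signalling, 0 passed at 6 h by limma (3 at an unadjusted p under 0.05), and 1 rose and 1 fell in tolerant against unstimulated cells, near the shares of all tested genes (14.0% and 12.2%). These were Gnai3, an inhibitory G-protein subunit (0.94 log2, adjusted p = 0.014), and Arrb1, beta-arrestin 1 (-1.04 log2, adjusted p = 0.03). The median change of the 8 genes was -0.24 log2 at 6 h and 0.12 log2 in tolerant cells. With the block, 1 rose and 1 fell at 6 h (11.6% and 12.5% of all tested genes). In tolerant cells 2 rose and 2 fell with the block (22.7% and 25.9%). There Rgs12 (adjusted p = 0.00153) and Grk6 (adjusted p = 0.023) joined the calls.

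Few other chemokines were measured. Of 9 further CXC chemokines, Cxcl10 alone was tested, and of 15 CC and other chemokines, Ccl2 and Cx3cl1 were. Ccl2, the monocyte attractant, stood at log2 6.64 in tolerant against 7.66 in 6 h cells, so that 75.9% of its 6 h rise was left. Its unstimulated arrays lay below log2 4. Cxcl10 had its highest level in tolerant cells (5.01, 5.59 and 5.62) and not at 6 h (4.16, 4.18 and 4.16). Among 8 tested genes at least 4-fold higher at 6 h with no overlap, the share left ran from -7.77% for Cebpd through Cxcl5, Neurl3 (13.6%), Nfkbiz (27.6%), Cxcl1, Cxcl2 and Ccl2 to 105% for Casp4. The mean unstimulated levels of Cxcl2, Ccl2, Neurl3 and Casp4 lay below log2 4, so their shares rest on near-floor values, as do the tolerant values of Neurl3.

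Known inducers of these chemokines were mostly below the floor. Il1a, Il1b, Il17a, Tnf, Csf2 and Csf3 had highest values between 2.21 and 2.67. Of the 3 tested genes of this list, the receptor genes Il17ra, Il17rc and Tnfrsf1a, 0 passed by limma in any comparison (0, 0 and 0 at an unadjusted p under 0.05), and with the block Il17rc was lower in tolerant than in unstimulated cells (-0.91 log2, adjusted p = 0.00282, and from 6 h to the tolerant state 0.0101). Median changes were -0.15 log2 at 6 h and -0.13 log2 in tolerant cells.

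Of 14 tested genes of the transcription of these chemokines, 1 rose at 6 h, Nfkbiz (0.0636% of all tested genes were called higher). With the block 5 rose and 1 fell at 6 h (11.6% and 12.5% of all tested genes). Nfkbiz encodes an atypical I-kappa-B protein that works with NF-kappa-B at secondary target genes. It read 8.83, 8.06 and 8.72 in unstimulated cells, 11.08, 10.86 and 10.65 at 6 h and 9.01, 9.13 and 9.40 in tolerant cells. Its tolerant arrays lay just above the unstimulated ones, and the difference of 0.64 log2 did not pass (limma adjusted p = 0.0738, or 0.0329 with the block). Cebpd, which encodes C/EBP-delta, read 5.67, 5.07 and 5.21 in unstimulated cells, 8.02, 6.95 and 7.12 at 6 h and 5.41, 4.73 and 5.34 in tolerant cells. Like those of Cxcl5, its tolerant and unstimulated arrays overlapped and all 6 h arrays lay above them. Its 4.12-fold difference at 6 h did not pass (limma adjusted p = 0.07) and passed with the block (adjusted p = 0.00244). In tolerant against unstimulated cells 3 of the 14 rose and 1 fell (14.0% and 12.2% of all tested genes), and 9 and 1 with the block (22.7% and 25.9%). Fos and Egr1, immediate-early transcription factor genes, were higher by 3.38 and 2.45 log2 in tolerant cells. At 6 h these 2 genes differed by -0.15 and -0.16 log2. Nfkbia, the remaining riser, was higher by 0.85 log2 in tolerant cells (limma adjusted p = 0.0456), and Stat3 was lower by 0.68 log2. The median change of the list was 0.21 log2 at 6 h and 0.78 log2 in tolerant cells.

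Of 9 tested genes that act on the stability of such mRNAs, 0 passed at 6 h by limma (2 at an unadjusted p under 0.05). With the block 2 were higher, Srsf1 and Zc3h12a (11.6% of all tested genes). In tolerant against unstimulated cells 3 rose and 2 fell (14.0% and 12.2% of all tested genes), with a median of -0.05 log2. The risers were Zfp36, Zfp36l1 and Zfp36l2, which encode the tristetraprolin family of proteins that promote decay of AU-rich mRNAs, by 1.16, 1.23 and 1.24 log2 (limma adjusted p = 0.0149, 0.000641 and 0.0209). Those that fell were Hnrnpd, the AU-rich element binding protein AUF1, by 1.11 log2, and Traf3ip2, the IL-17 receptor adaptor Act1, for which 2 of 3 tolerant arrays lay below log2 4, so that its difference of -1.01 log2 rests on near-floor values. Zc3h12a, which encodes the endonuclease Regnase-1, lay below log2 4 on all unstimulated and tolerant arrays and at 4.52, 4.87 and 5.68 at 6 h, at least 2.03-fold higher (limma adjusted p = 0.115, or 0.0297 with the block). It passed the level minimum through its 6 h arrays alone, so its changes, the block call among them, are descriptions and not support.

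**Figure D5:**
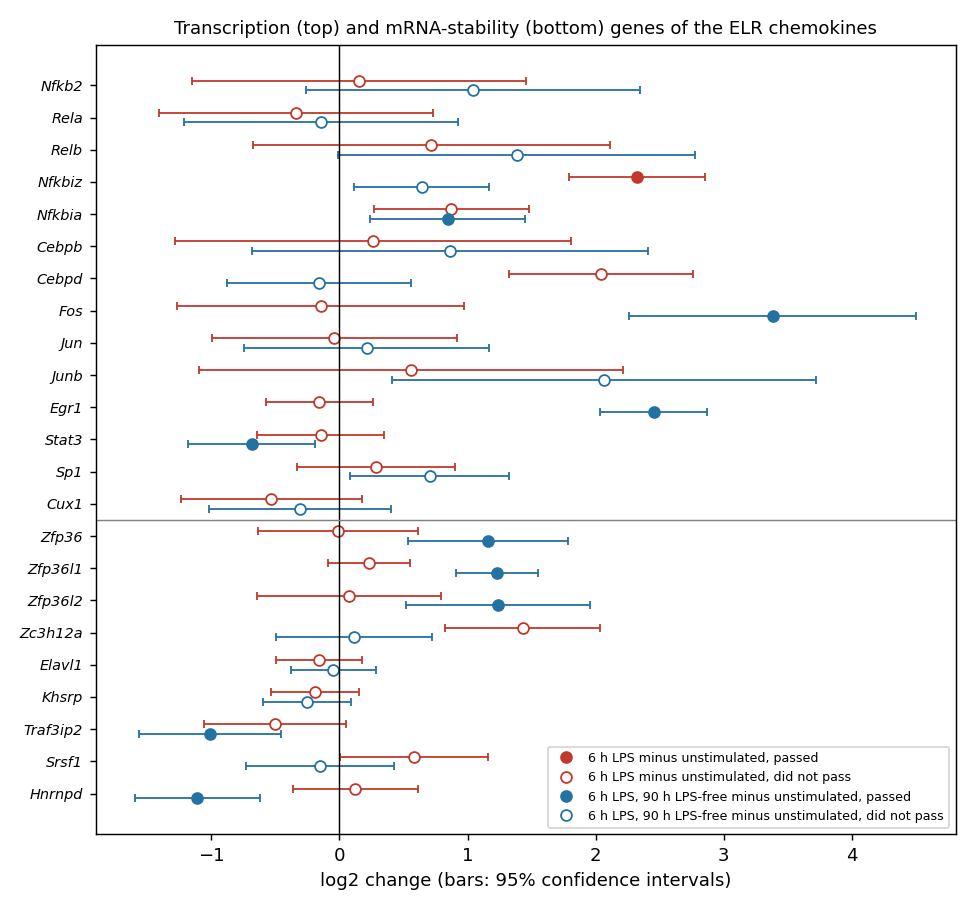
Log2 change against unstimulated cells at 6 h of LPS (red) and in tolerant cells (blue) for the tested transcription (top) and mRNA-stability (bottom) genes, with 95% confidence intervals. Filled points passed at an adjusted p of 0.05 over all tested genes. Nfkbiz is the single filled red point, and Fos, Egr1 and the 3 Zfp36 family genes are among the filled blue points.

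Proteins that cut or hold chemokines gave 6 tested genes of 14 with a probe set, of which 0 passed at 6 h by limma (0 at an unadjusted p under 0.05) and 2 rose in tolerant cells (14.0% of all tested genes), with medians of -0.27 and -0.10 log2. With the block Ext1, a heparan sulfate polymerase gene, was also lower in tolerant cells (adjusted p = 0.0496). The risers were Mmp7, matrilysin, which releases syndecan-1 with bound CXCL1 from epithelial cells (4.54 log2, 1 of 3 unstimulated arrays below log2 4), and Prtn3, listed as the gene of a neutrophil serine protease (1.34 log2). Sdc1, the syndecan-1 gene itself, changed by 0.04 log2 in tolerant cells (limma adjusted p = 0.952). The neutrophil proteases Elane and Ctsg and the collagenase Mmp8 stayed below log2 4.

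Of 11 epithelial genes tied to neutrophil responses, Lcn2 and Hbegf were tested. Lcn2, a lipocalin that binds bacterial siderophores, read 12.06, 11.07 and 11.17 in unstimulated cells, 13.23, 12.70 and 12.46 at 6 h and 13.40, 12.86 and 12.99 in tolerant cells. Its 6 h and tolerant arrays overlapped, and both lay above the unstimulated ones (12.9% and 22.6% of all tested genes in the 2 comparisons). Its difference of 1.36 log2 at 6 h did not pass (limma adjusted p = 0.115, or 0.0115 with the block). In tolerant cells Lcn2 and Hbegf were higher by 1.65 and 2.36 log2 (limma adjusted p = 0.00559 and 0.00662), a call made for 14.0% of all tested genes. Hbegf differed by -0.23 log2 at 6 h. S100a8, S100a9, Reg3b and Reg3g had highest values between 2.29 and 2.71.

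The tested genes whose log2 values over the 9 arrays were most like each chemokine gene were ranked by Pearson r, as a description. For Cxcl1 they were Cxcl2, Ccl2 (r = 0.957), Rrbp1, Smad5 and Fndc3b, and the same 5 places for Cxcl2 were held by Cxcl1, Ccl2 (0.963), Rrbp1, Fndc3b and Smad5. For Cxcl5 they were Gk5 (0.985), Neurl3 (0.975), Atxn7, Csf1 and Arpc5 (0.966). Neurl3 lay below log2 4 on all unstimulated and tolerant arrays, so its r rests in part on near-floor values. Gk5 ranged only from 4.05 to 4.49 over the 9 arrays. Csf1, the macrophage growth factor gene, read 8.25 ± 0.08 (SD, n = 3) in unstimulated, 9.08 ± 0.08 in 6 h and 8.27 ± 0.12 in tolerant cells. The rise of Csf1 at 6 h did not pass (limma adjusted p = 0.108, or 0.0272 with the block). For Ppbp the most alike genes were Bbip1 (0.974), Neat1 (0.971), Tars, Nras and Eif4g2 (0.96). High r does not mean like size. Rrbp1 was 0.50 log2 and Gk5 0.33 log2 higher at 6 h, and neither passed (limma adjusted p = 0.117 and 0.18), while with the block Rrbp1 did (adjusted p = 0.0331) and Gk5 did not (0.065).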

How the data were processed

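Transcripts were measured on 9 Affymetrix mouse arrays, 3 per condition, grouped by sample titles. The deposited values are linear probe-set intensity, which the authors computed with GCRMA, as the submitters' processing notes name it without a version. GCRMA as usually run estimates background from probe sequence, which compresses dim values.

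Their log2 was analysed, with no pseudocount added. Of 45101 probe sets, 34945 carried 1 gene symbol, 932 several and 9160 no listed gene, and 64 were controls; only those with 1 symbol were used for genes. Tests used limma 3.58.1 in R 4.3.3, fitting 1 mean per condition to the 9 arrays (6 residual degrees of freedom), and eBayes without trend. Benjamini-Hochberg adjustment was at 0.05 over 9431 genes. The tests were checked on simulated data with noise independent between genes and arrays. That check does not cover deviations that arrays share. Ratios between genes used exact permutation tests (SciPy 1.17.1). A lower bound sets the higher group's mean against log2 4 where the lower group was below it on each array. Arrays with the same replicate number deviated in common across genes (r of 0.157 to 0.844 in 9 pairs). The labels' replicate numbers therefore served as a block in an alternative fit, and not in the main tests. Numbers 2 and 3 also correlated across numbers (0.214 to 0.731), and the labels do not say what a number shares. Alternatives covered the filter, probe-set rule, normalization, a floor, eBayes settings, separate fits, the block and arrays left out. Named were the 4 genes, their neighbours, up to 4 tested genes per list with all receptors and related ligands, and the 5 most alike genes; where more are named they were chosen after their values were seen. Of 153 entries in 15 lists, 9 lacked a 1-symbol probe set and 88 were below the minimum. The members and lists were chosen with earlier results of these data known.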

Additional observations from a re-analysis of the deposited data

How the results depend on the processing

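Of the 228 recomputed changes of the 4 genes, 223 kept their direction and their side of the threshold. Ppbp at 6 h (1.23 log2) passed with the replicate block, at the same 1.23 log2, and without 6 h LPS replicate 3; over single arrays left out its change was 1.13 to 1.40. The block changed no other call of the 4 genes. The difference of Cxcl5 between tolerant and unstimulated cells (-0.06) ran from -0.41 to 0.29 over single arrays left out and was 0.44 on replicates 2 and 3 only, with no call in any setting. The share of the 6 h rise left moved on the linear scale, an alternative added after seeing the data, to 21.1% for Cxcl1, 21.0% for Cxcl2 and -42.3% for Ppbp, and for Cxcl2 to 44.1% with the floor. Among the differences between genes, those of Cxcl1 and Cxcl2 changed sign. With the floor they were 0.54 at 6 h and 0.58 in tolerant cells, and from 6 h to the tolerant state -0.013 with the mean of probe sets. Over single arrays left out they ran from -0.36 to 0.10, -0.32 to 0.13 and -0.043 to 0.15. The floor acts only on the near-floor values of Cxcl2; for the others the cause was not tested. Without tying values below log2 4, an alternative also settled after seeing the data, the orders of levels of Ppbp, of Cxcl1 and Cxcl2, and of Cxcl5 were found in 70, 24 and 169 genes. Calls over all genes at 6 h were 6, against 37 without a filter, 14 with the mean of probe sets, 2267 with the block and 5 to 696 over single arrays left out, the highest without 6 h LPS replicate 3. For tolerant against unstimulated cells they were 2470, against 4219 with each probe set by itself, 4586 with the block, and 1400 to 2908 over single arrays left out. For tolerant against 6 h cells they were 1238, against 1963 with each probe set by itself, 2985 with the block, 2126 on replicates 2 and 3 and 677 to 1282 over single arrays left out. Signal near the background limits Cxcl2 in unstimulated cells.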
